A study of Mus musculus with 12 samples.

Results

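The clustered replication-dependent histone genes are the genes that supply the bulk of histone protein to newly copied DNA. They were taken from the gene table by name, as every H2ac, H2bc, H3c or H4c gene with a number and H1f1 to H1f5, without use of measured values. This gave 66 of 57180 genes, with 5 in the H1 class, 18 in H2A, 18 in H2B, 12 in H3 and 13 in H4. RNA was measured in HC11 cells, an established mouse mammary epithelial line, by sequencing of libraries made with a stranded mRNA kit. The cells were sorted, left overnight to aggregate in medium with EGF and insulin, and placed in an in vitro migration assay. The series asks what Snail1, a transcriptional repressor encoded by Snai1, does in collective migration. The 4 groups of 3 libraries were control cells (titled scr, genotype WT) at 0 h, control cells at 36 h, Snail1 KD (knockdown) cells at 0 h and Snail1 KD cells at 36 h. The labels name neither the knockdown sequence nor the number of clones. Nothing in them ties a group's 3 libraries to separate cultures, and p-values then measure spread among libraries that may be technical. One control library at 36 h, library 4, has the unexplained word "mix" in its title.

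Nucleosomes wrap DNA around a core of H2A, H2B, H3 and H4, and the linker histone H1 binds where the DNA enters and leaves that core. Cells make most of this protein during S phase from clusters of small intronless genes. The mRNAs of these genes end in a conserved stem-loop in place of a poly(A) tail. The stem-loop is bound by SLBP, and U7 snRNP directs the cut just after it. Because mRNA library kits capture poly(A) tails, most histone mRNA molecules are poorly captured, and the values here describe the RNA that entered the libraries. Some histone genes can also give longer, polyadenylated transcripts when cells leave the cycle or differentiate.

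The stem-loop letters were looked for in the transcript model of each gene, because they separate models that stop at the histone end from models that go on past it. Each of the 66 genes had a GENCODE M21 transcript, matched by gene ID, whose length equals the length in the deposited table. The letters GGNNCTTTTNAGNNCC on the transcript strand were present in 42 of the 66 models, against 0.167% of all 58797 protein-coding transcripts in that annotation. Counted over any transcript of a gene, the letters were in 0.329% of the 21901 protein-coding genes. The lines below give the stem-loop with its flanks, 5′ to 3′, for members on which the results turn. Capitals mark the stem-loop letters.
H2ac24: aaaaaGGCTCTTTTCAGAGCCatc
H2ac18: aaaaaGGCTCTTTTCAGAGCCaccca
H1f2: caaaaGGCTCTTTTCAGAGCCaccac
H2bc8: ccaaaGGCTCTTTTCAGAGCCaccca
H2ac6: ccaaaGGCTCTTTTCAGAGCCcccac
H2bc12: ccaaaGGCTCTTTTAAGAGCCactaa
H4c8: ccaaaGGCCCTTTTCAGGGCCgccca
H4c11: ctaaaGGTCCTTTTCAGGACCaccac
The core of the first 5 lines was the commonest and stood in 25 members, drawn from H1, H2A, H2B and H3. The core printed for H4c8 stood in 7 members, all of them H4 genes. The core of H2bc12 stood in 5 members of H2B and H3. The model of H2bc4, the most abundant H2B gene here, holds no such letters.

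Near-copies limit what can be said of single members. In windows of 75 bases, H2ac19 shared 100% of its windows with H2ac18, H2ac24 shared 92.6% with H2ac23, and H2bc24 shared 99.8% with H2bc23. In all, 28 members shared more than 50% of their windows with another transcript and 5 shared none. How the authors assigned such reads is not stated, so these pairs are also given as sums. H2ac19 and H2ac18 also shared 100% and 88.9% of their windows with Gm20634, which was at most 0.44 TPM in any library.

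Snai1 RNA, the target of the knockdown, was at 1.34, 2.51 and 1.69 TPM in control and 0.58, 0.79 and 0.48 TPM in knockdown at 0 h (log2 fold change -0.80, SE 0.23, limma adjusted p = 0.0348). At 36 h it was at 2.77, 2.69 and 3.92 TPM in control and 0.58, 0.44 and 0.2 TPM in knockdown (log2 fold change -1.55, SE 0.23, limma adjusted p = 0.0105). Median-of-ratios scaling, which divides each library by its median ratio to the geometric mean of all libraries, took the 0 h difference to -0.54 and ended its call (limma adjusted p = 0.158), and leaving out any 1 control library of 0 h, or the first knockdown library of 0 h, or library 2 of knockdown at 36 h, also ended it (adjusted p = 0.0525 to 0.122). The 36 h call ended without library 4 of control, or without library 2 or 3 of knockdown, at that time (adjusted p = 0.0576 to 0.0695). Knockdown 0 h library 2 stood apart from the rest, with 13.99% of its TPM in mitochondrial genes against 1.454 to 6.154% elsewhere, and 10.55% in genes under 300 bases against 2.323 to 5.234% elsewhere. The epithelial label was checked on 4 marker lists, which summed to 3343 to 25520 TPM for 7 mammary epithelial genes, 3.76 to 23.17 TPM for 6 fibroblast genes, 3.72 to 16.11 TPM for 5 immune genes and 0.59 to 7.08 TPM for 5 endothelial and adipocyte genes. Adipoq was 0 in all libraries, and Ptprc was at most 0.17 TPM. TPM keeps no read number, so the depth of the libraries and the counting error are unknown.

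Together the 66 genes made up 0.0499 to 0.126% of the TPM of a library. Their sum was 1063, 1256 and 1110 TPM in control at 0 h, and 666.1, 801.2 and 776 TPM in control at 36 h. Knockdown libraries summed to 772.9, 956.6 and 741.6 TPM at 0 h, and 665.3, 630.4 and 499.4 TPM at 36 h. Every knockdown library lay below every control library at the same time, and every 36 h library lay below every 0 h library of the same cells. The log2 ratios of the group means were -0.473 for the knockdown at 0 h and -0.321 at 36 h. For 36 h over 0 h they were -0.612 in control and -0.461 in knockdown. These sums are descriptions and carry no test. In bulk RNA, fewer cells that make a transcript and less of it per cell cannot be told apart.

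The knockdown difference at 0 h depended on the scale and on H2ac24. After median-of-ratios scaling the 0 h ratio of all members turned to 0.102 with overlapping groups, and the ratio at 36 h was -0.235 with overlapping groups. Over time, the sums stayed lower at 36 h without overlap under that scaling, at -0.601 in control and -0.939 in knockdown. H2ac24 alone held 33.5 to 65.9% of the sum. Without it the ratio was -0.0223 with overlap at 0 h, and 0.176 at 36 h with every knockdown library above every control library. Under median-of-ratios scaling these were 0.517 and 0.266, both with overlap. Over time, the ratio without H2ac24 was -0.474 in control and -0.275 in knockdown, still without overlap. Without knockdown 0 h library 2, the 0 h ratio of all members was -0.594.

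The 5 classes did not move alike. H2A was 55.6 to 80.7% of the sum, H2B 8.61 to 33.7%, H4 2.35 to 7.55%, H1 1.63 to 7.93% and H3 0.809 to 1.95%. The H1 sum showed the widest difference, at 80.66 ± 15.1 TPM (SD, n = 3 libraries, as for all later SDs) in control at 0 h, 21.13 ± 1.41 in control at 36 h, 21.23 ± 4.98 in knockdown at 0 h and 15.23 ± 3.7 in knockdown at 36 h. Control at 0 h was above the other groups in every library. The log2 ratio of H1 was -1.93 for the knockdown at 0 h and -1.48 after median-of-ratios scaling, without overlap in either case.

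The H2A sum was 877.5 ± 80.4 TPM in control at 0 h, 548.6 ± 55.2 in control at 36 h, 640.2 ± 114 in knockdown at 0 h and 376.6 ± 87.1 in knockdown at 36 h. Without H2ac24, the H2A sum was higher in every knockdown library at 0 h, at 222.6 to 252.5 TPM against 158.3 to 179.4 TPM in control. H2ac18 and H2ac19 carried that difference, since without them as well, a sum added after seeing the data, the other 15 H2A genes had 84.94, 133.7 and 85.24 TPM in knockdown and 126.5, 136.5 and 124.2 TPM in control at 0 h. That log2 ratio was -0.35 with overlapping groups, or 0.27 with overlap under median-of-ratios scaling and -0.601 without overlap when knockdown 0 h library 2 was left out. At 36 h the ratio of the 15 was -0.699 without overlap. With H2ac24 included, the H2A ratio at 0 h changed sign under median-of-ratios scaling, from -0.455 to 0.132.

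The H2B sum took another course. It was 125.6 ± 6.4 TPM in control at 0 h, 133.9 ± 10.9 in control at 36 h, 98.7 ± 16.9 in knockdown at 0 h and 163.3 ± 5.29 in knockdown at 36 h. Knockdown libraries were below control at 0 h (log2 ratio -0.348, which turned to 0.135 with overlap under median-of-ratios scaling) and above control at 36 h (0.286, and 0.375 under that scaling, without overlap in both). In knockdown the H2B sum was higher at 36 h than at 0 h by a log2 ratio of 0.726, while the H2A sum was lower by -0.765. Under median-of-ratios scaling these ratios were 0.345, with overlap, and -1.26.

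The H4 sum was 43.7 ± 15.4 TPM in control at 0 h, 34.79 ± 4.57 in control at 36 h, 53.02 ± 17 in knockdown at 0 h and 36.73 ± 3.34 in knockdown at 36 h. Its groups overlapped in all 4 comparisons. Under median-of-ratios scaling the change over time in knockdown had a log2 ratio of -1.05 without overlap. The H3 sum was 15.54 ± 7.99 TPM in control at 0 h and 6.503 ± 0.942 TPM in knockdown at 36 h. The H3 groups overlapped except for the knockdown at 36 h, where 5.83 to 7.58 TPM lay below 7.97 to 10.33 TPM in control, and that gap closed under median-of-ratios scaling.

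**Figure D1:**
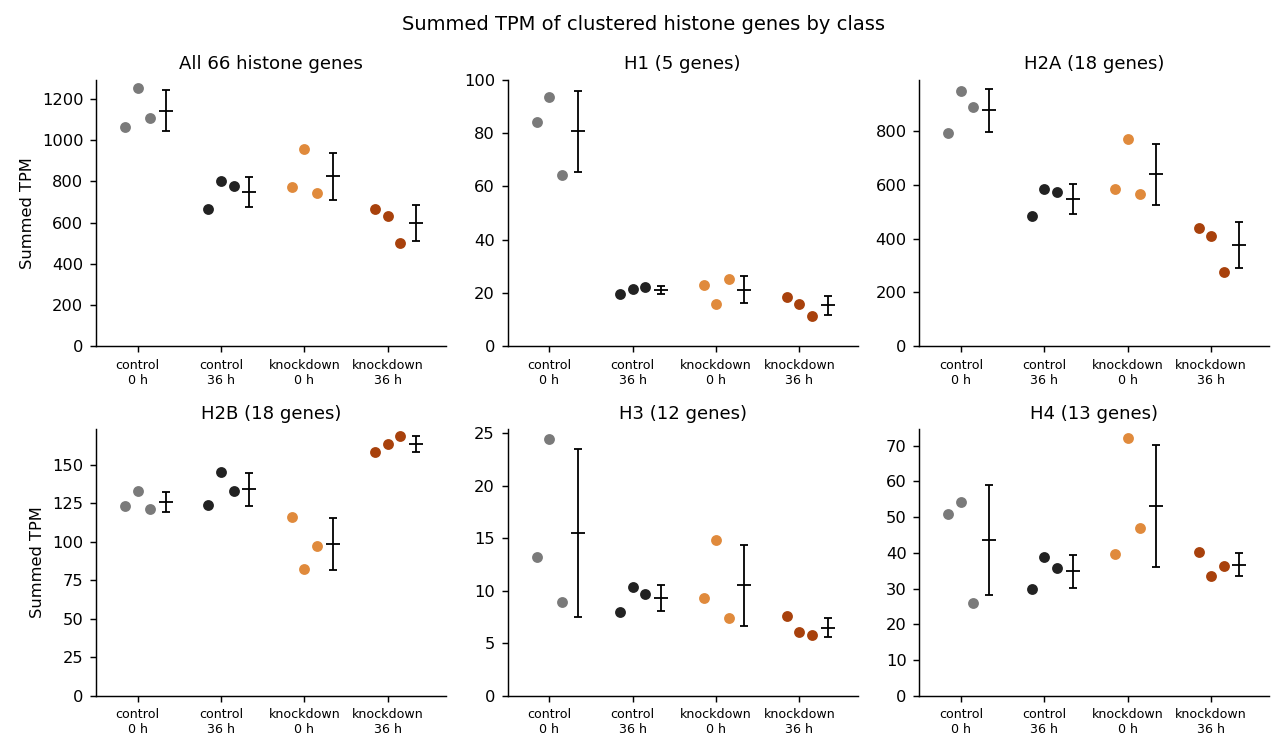
Summed TPM (vertical axes, from 0) of all 66 clustered histone genes and of each class in the 12 libraries. Points are libraries, and the bar beside them is the mean with its SD. The H1 panel shows control at 0 h, 64.05 to 93.66 TPM, above the other 3 groups, and the H2B panel shows knockdown at 36 h, 158 to 168.5 TPM, at the top.

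Of the 66 genes, 42 reached 1 TPM in at least 3 of the 12 libraries and were tested, with 4 in H1, 14 in H2A, 13 in H2B, 4 in H3 and 7 in H4. The other 24 had means of at most 0.6892 TPM, and 1 of them, H2ac21, was 0 in every library. A gene was called where its limma adjusted p, taken over all 14426 genes tested, was under 0.05. For the knockdown at 0 h, 8 members were called, with 3 higher (H2ac18, H2ac19 and H4c8) and 5 lower (H1f2, H2bc24, H2bc8, H2ac24 and H4c11). Of all genes tested, 17.7% were called in that comparison, with 3.1% higher and 14.6% lower, so 3 higher of 42 (7.14%) and 5 lower of 42 (11.9%) stand beside those shares. The median change of the 42 was -0.38, and that of all genes tested was -0.41. Median-of-ratios scaling moved the median of all genes to -0.02, and the split of called members from 3 higher and 5 lower to 3 higher and 3 lower. With only the 0 h groups in the fit, no member was called, and 0.111% of all genes were. Leaving out any 1 control 0 h library gave 4 called members, beside 5.27 to 7.05% of all genes.

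For the knockdown at 36 h, 1 member was called, H2ac18, which was higher, against 2.53% of all genes tested (0.894% higher and 1.64% lower). The median change of the 42 was -0.18, beside -0.09 for all genes. Without knockdown 0 h library 2, which enters this comparison only through the shared spread, 7 members were called, 2 higher and 5 lower, and 19% of all genes. With only the 36 h groups in the fit, 6 members were called, beside 15.1% of all genes. The H2ac18 call ended, and no member was called, when library 1 or 4 of control at 36 h, or any 1 of the knockdown libraries of that time, was left out (adjusted p of H2ac18 from 0.0615 to 0.0845).

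From 0 h to 36 h in control, 3 members fell (H1f2, H2ac6 and H2bc8) and none rose, against 0.36% of all genes tested (0.111% lower and 0.25% higher). The median change of the 42 was -0.25, beside -0.01 for all genes. Without control 0 h library 1 or 2 or control 36 h library 1 or 4 the count was 1, beside 0.126 to 0.146% of all genes. Without knockdown 0 h library 2 it was 5, beside 2.82% of all genes. In knockdown, 1 member fell over time, H2ac6, against 1.12% of all genes (0.125% lower and 0.998% higher). The count was 0 without knockdown 36 h library 2, beside 0.322% of all genes. It was 2 without knockdown 0 h library 1, 2 or 3, beside 1.13, 2.87 and 11% of all genes. The median change of the 42 in knockdown was -0.21, while that of all genes was 0.33, or 0.03 after median-of-ratios scaling. In that comparison the other tested genes under 700 bases had a median of -0.20, and the 12 tested nuclear RNAs without poly(A) tails, all of them negative and none called, a median of -0.99. The control 0 h libraries enter both the knockdown comparison at 0 h and the change over time in control, so calls in these are not independent. For the difference between the changes over time, limma called no member and no gene (0%), with 7 members at an unadjusted p under 0.05 and a lowest adjusted p among members of 0.4583.

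Counts of members whose groups did not overlap were as follows. For the knockdown at 0 h, 3 of 42 were higher in every library and 11 lower, beside 7.24% and 30.7% of all genes tested. At 36 h the counts were 5 higher and 10 lower, beside 14.8% and 22% of all genes. Over time in control, 3 were higher and 11 lower, beside 9.55% and 12.3%. Over time in knockdown, 6 were higher (14.3%) and 10 lower (23.8%), beside 15% and 3.91% of all genes.

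**Figure D2:**
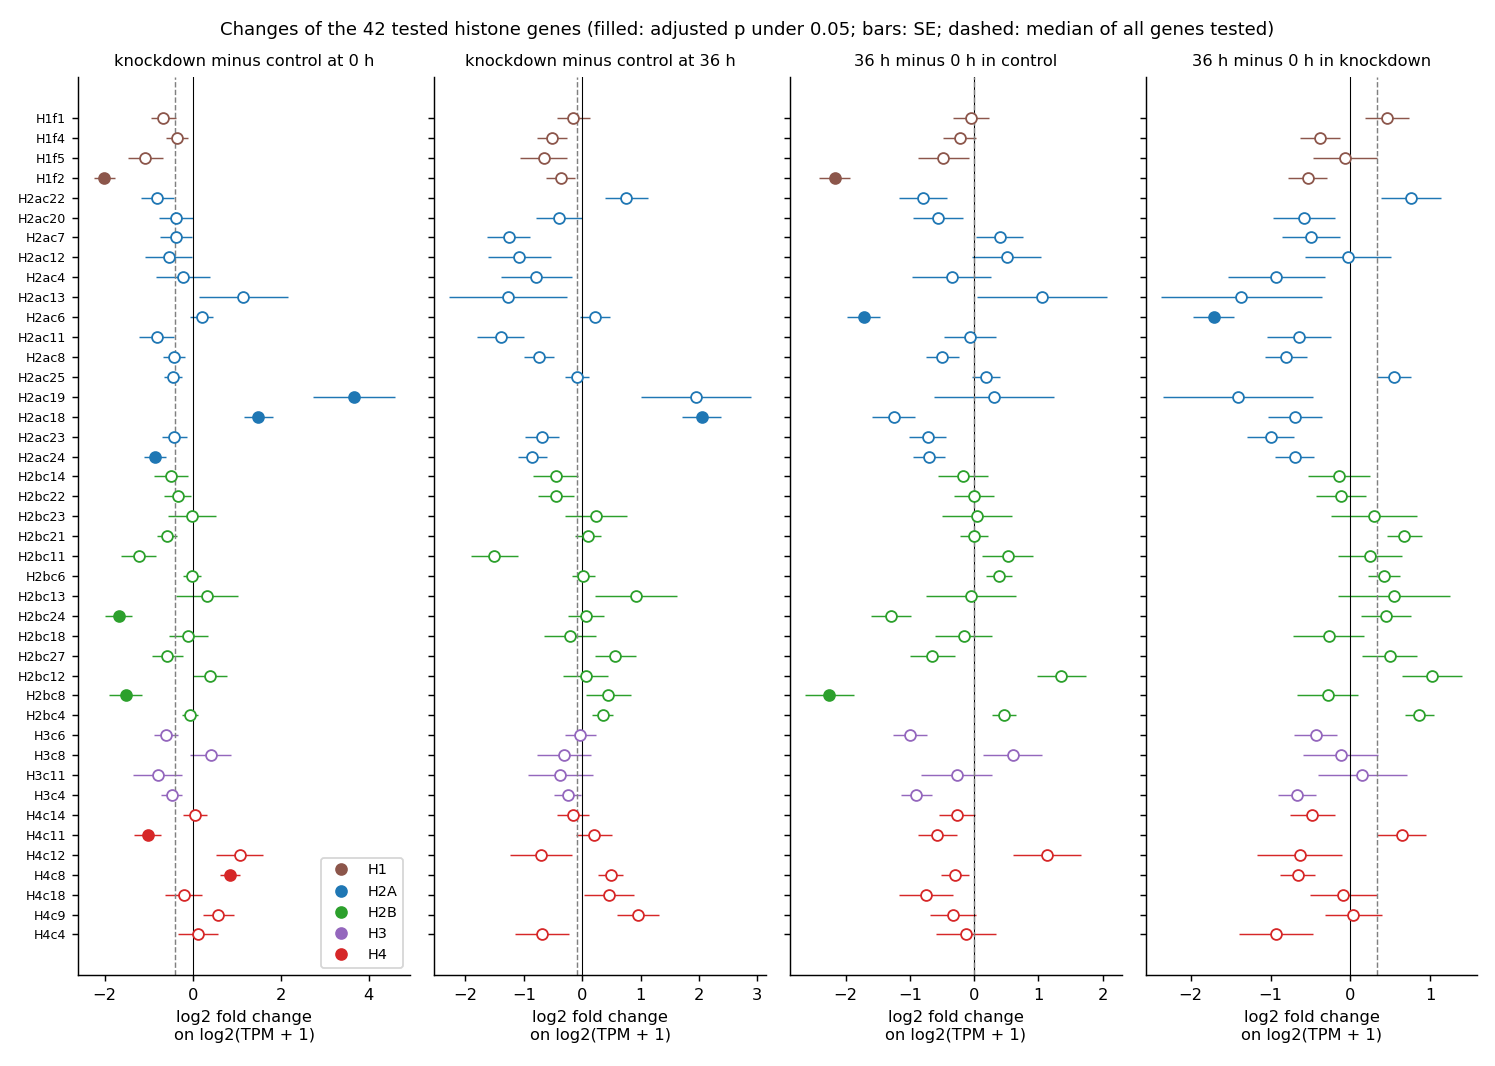
Log2 fold change (horizontal axes, log2(TPM + 1) scale) with its SE for each of the 42 tested histone genes in 4 comparisons, coloured by class and ordered within a class by mean level. Filled points passed the limma threshold, and the dashed line is the median of all genes tested. H2ac18 is filled and to the right in both knockdown panels, and H2ac6 is filled and to the left in both panels of change over time.

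H2ac24, an H2A gene of the large cluster on chromosome 13, was the most abundant member. It was at 633.31, 771.71 and 731.27 TPM in control at 0 h, and at 385.81, 471.18 and 455.31 TPM in control at 36 h. Its knockdown values were 337.42, 519.04 and 341.88 TPM at 0 h, and 292.92, 283.45 and 167.21 TPM at 36 h. At each time all control libraries were above all knockdown libraries. H2ac24 was lower in knockdown at 0 h (log2 fold change -0.86, SE 0.25, limma adjusted p = 0.0368). That call was lost in 13 of 23 alternatives, among them median-of-ratios scaling (-0.39, adjusted p = 0.46) and leaving out any 1 control library except library 3 of 36 h, library 1 of knockdown at 0 h, or library 2 of knockdown at 36 h (adjusted p = 0.0502 to 0.112). At 36 h the log2 fold change was -0.86, with an adjusted p of 0.0999, or 0.0123 without knockdown 0 h library 2. Over time it was -0.70 in control and -0.70 in knockdown, without a call in either.

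H2ac23, the near-copy of H2ac24, had 77.07 to 85.81 TPM in control at 0 h, 43.37 to 60.36 in control at 36 h, 52.65 to 75.54 in knockdown at 0 h and 18.17 to 40.76 in knockdown at 36 h. It passed in none of the 5 comparisons by limma, with unadjusted p under 0.05 in 3 of them. Summed as 1 feature, a choice made after seeing the data, H2ac23 and H2ac24 were lower in knockdown at 0 h (log2 fold change -0.81, SE 0.25, adjusted p = 0.0457). Under median-of-ratios scaling the log2 ratio of their mean TPM went from -0.784 to -0.175, with overlapping groups.

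H2ac18 and H2ac19, an H2A pair of the small cluster on chromosome 3, went the other way. Their summed level was 31.92, 42.87 and 34.07 TPM in control at 0 h, and 17.85, 19.29 and 21.19 TPM in control at 36 h. In knockdown it was 162.3, 118.8 and 137.4 TPM at 0 h, and 81.63, 65.97 and 69.34 TPM at 36 h. The lowest knockdown library, at 65.97 TPM, was above the highest control library of either time. Tested as 1 feature, a choice made after seeing the data, the pair was higher in knockdown at 0 h (log2 fold change 1.91, SE 0.20, limma adjusted p = 8.94e-04) and at 36 h (1.84, SE 0.20, adjusted p = 0.00249). The limma fit of the pair was not repeated under other settings or with a library left out. The ratio of means was 3.845 at 0 h and 3.719 at 36 h, and the log2 ratios of 1.94 and 1.89 became 2.43 and 1.99 under median-of-ratios scaling. Over time the pair was lower in both kinds of cell, by -0.86 in control (adjusted p = 0.14) and -0.93 in knockdown (adjusted p = 0.0512), which did not pass.

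Taken singly, H2ac18 was at 20.05 to 38.20 TPM in control and 68.91 to 100.62 TPM in knockdown at 0 h (log2 fold change 1.49, SE 0.33, limma adjusted p = 0.0144, or 0.0609 without control 0 h library 3). At 36 h it was at 7.28 to 18.89 TPM in control and 43.43 to 59.22 TPM in knockdown (2.05, SE 0.33, adjusted p = 0.0152). The H2ac18 call was lost in 2 of 23 alternatives at 0 h and in 7 of 23 at 36 h. H2ac19 was at 0, 4.67 and 14.02 TPM in control and 61.73, 49.89 and 53.55 TPM in knockdown at 0 h (3.67, SE 0.94, adjusted p = 0.0242, which rose to 0.0846 and 0.0597 without control 0 h library 1 and 2). Its control values at 36 h were 6.70, 0.40 and 13.91 TPM and its knockdown values 22.41, 13.81 and 25.91 TPM, so the groups overlapped (1.95, SE 0.94, adjusted p = 0.339). At each time, the control library with the lowest H2ac18 value had the highest H2ac19 value. As a share of the sum of H2ac23 and H2ac24, the pair was 3.75 to 5.01% in the 6 control libraries and 20 to 41.6% in the 6 knockdown libraries.

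The promoters of H2ac18 and H2ac19 are shown because both genes were higher in knockdown at 0 h. The lines give the 150 bases before the RefSeq start (GRCm38.p6), 5′ to 3′ on the strand of the gene, with H2ac18 at chr3:96245347-96245496 on the plus strand and H2ac19 at chr3:96240375-96240524 on the minus strand. Capitals mark CCAAT on either strand.
H2ac18: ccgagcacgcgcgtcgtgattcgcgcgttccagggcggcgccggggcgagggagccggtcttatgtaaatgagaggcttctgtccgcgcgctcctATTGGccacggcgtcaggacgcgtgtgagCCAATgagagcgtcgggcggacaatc
H2ac19: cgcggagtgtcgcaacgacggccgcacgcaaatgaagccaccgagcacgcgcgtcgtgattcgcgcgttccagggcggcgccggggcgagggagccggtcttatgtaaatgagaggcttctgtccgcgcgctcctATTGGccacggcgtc
They share an unbroken run of 110 bases, so the copies are alike upstream as well as in the transcript. The longest run that H2ac18 shares with H2ac24 over the same 150 bases is 7 bases.

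H1f2 carried the H1 result and is the linker histone gene with the highest level here, at 64.4 to 93.3% of the class. It was at 71.03, 81.13 and 59.79 TPM in control at 0 h and 14.62, 13.90 and 15.89 TPM in control at 36 h. The knockdown libraries had 19.11, 11.88 and 20.53 TPM at 0 h and 13.51, 12.01 and 8.71 TPM at 36 h. Every control 0 h library was above every other library. H1f2 was lower in knockdown at 0 h (log2 fold change -2.00, SE 0.25, limma adjusted p = 0.00146), which is -1.60 relative to the median of all genes. It fell over time in control (-2.17, SE 0.25, adjusted p = 0.0043). In knockdown the change over time was -0.54 (adjusted p = 0.306), or -0.85 (adjusted p = 0.0349) with median-of-ratios scaling without knockdown 0 h library 2, and at 36 h the knockdown difference was -0.37 (adjusted p = 0.541). The difference between the changes over time was 1.64 (SE 0.35), with an unadjusted p of 6.04e-04 and an adjusted p of 0.458. Leaving out any 1 library ended neither of the H1f2 calls. A fit of only the groups compared ended the call at 0 h (adjusted p = 0.063).

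The other H1 genes were low. H1f5 was at 1.77 to 7.10 TPM in control at 0 h and 1.10 to 2.21 TPM in knockdown at 0 h, with a log2 fold change of -1.07 and an adjusted p of 0.0811. It passed without control 0 h library 3 (-1.57, adjusted p = 0.0226) and without knockdown 0 h library 3 (-1.22, adjusted p = 0.0497). H1f4 was at 0.68 to 3.28 TPM over all libraries and H1f1 at 0.33 to 2.15 TPM, and neither passed in any comparison. H1f3, with a model of 7425 bases, was at 0.20 to 1.44 TPM and was not tested.

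H2bc8, an H2B gene of the chromosome 13 cluster, was also highest in control at 0 h. Its transcript shared 42.5% of its 75-base windows with the more abundant H2bc4, and how such reads were assigned is not stated. H2bc8 was at 20.14, 27.31 and 24.68 TPM in control at 0 h and 5.76, 4.60 and 2.75 TPM in control at 36 h. In knockdown it was at 12.45, 3.32 and 10.24 TPM at 0 h and 6.49, 5.77 and 6.10 TPM at 36 h. It was lower in knockdown at 0 h (log2 fold change -1.52, SE 0.38, limma adjusted p = 0.0227) and fell over time in control (-2.25, SE 0.38, adjusted p = 0.03). The 0 h call was lost in 5 of 23 alternatives, among them leaving out any 1 control 0 h library (adjusted p = 0.0587 to 0.0777). The call over time was lost in 12, among them leaving out any 1 control library or any 1 knockdown 36 h library (adjusted p = 0.0599 to 0.179). At 36 h the knockdown difference was 0.45 (adjusted p = 0.66), with all knockdown libraries slightly above all control libraries.

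H2bc4 was the most abundant H2B gene, at 51.9 to 80% of its class, and had higher means at 36 h. It was at 63.91, 75.53 and 67.52 TPM in control at 0 h, and at 89.19, 102.45 and 94.54 TPM in control at 36 h. Knockdown cells had 78.71, 56.52 and 65.66 TPM at 0 h, and 109.91, 121.13 and 134.90 TPM at 36 h. The 36 h libraries were above the 0 h libraries in both kinds of cell, but the changes did not pass (0.46 in control, adjusted p = 0.716; 0.86 in knockdown, SE 0.18, adjusted p = 0.0521). The change in knockdown passed without knockdown 0 h library 1, 2 or 3 (adjusted p = 0.0398, 0.0122 and 0.0385). H2bc12 was likewise higher at 36 h, at 9.67 to 13.80 TPM against 2.49 to 6.94 in control and 9.65 to 15.49 against 2.90 to 8.35 in knockdown, with adjusted p of 0.3, or 0.0358 without knockdown 0 h library 2, and 0.25.

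H2bc24 was lower in knockdown at 0 h, at 1.37, 2.07 and 0.56 TPM against 7.88, 6.21 and 4.86 TPM in control (log2 fold change -1.68, SE 0.31, limma adjusted p = 0.00713). Summed with its near-copy H2bc23 the difference was -1.38 (SE 0.28, adjusted p = 0.00969). At 36 h the summed pair was at 2.68 to 3.1 TPM in control and 3.13 to 4.34 TPM in knockdown (0.21, adjusted p = 0.82).

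The H2A and H2B genes often lie head to head, so that 1 stretch of DNA holds both promoters. In GENCODE M21, 12 such H2A and H2B pairs had starts on opposite strands within 305 bases, and H2bc9 and H3c7 were 659 bases apart. H2ac6 and H2bc4, with 250 bases between their starts, are such a pair, and their group means went in opposite directions over time in both kinds of cell. Of the 12 pairs, only H2ac11 with H2bc11 and H2ac13 with H2bc13 did so as well. The groups of those genes overlapped over time in both kinds of cell. H2ac13 was 0 in 5 libraries, and H2bc11 and H2bc13 were each 0 in 4 and at most 3.50 and 4.10 TPM, so their directions are uncertain. H2ac6 was at 5.26, 6.42 and 4.03 TPM in control at 0 h and 0.84, 1.15 and 0.65 TPM in control at 36 h. In knockdown it was at 7.14, 7.44 and 4.21 TPM at 0 h and 1.23, 0.81 and 1.52 TPM at 36 h. H2ac6 fell over time in control (log2 fold change -1.72, SE 0.26, limma adjusted p = 0.0153) and in knockdown (-1.71, SE 0.26, adjusted p = 0.0089), and the changes differed by 0.01 (SE 0.36). The control call was lost in 9 of 23 alternatives, among them median-of-ratios scaling and leaving out control 0 h library 1 or 2 or control 36 h library 1 or 4 (adjusted p = 0.0853 to 0.0991). The knockdown call was lost in 4, among them leaving out knockdown 36 h library 2 (adjusted p = 0.0571). H2bc4 had higher values at 36 h than at 0 h in every library of the same cells, as given above. The model of H2ac6 is 2482 bases long and runs on past the stem-loop.

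H2bc8 and H2ac8, whose starts are 175 bases apart, had unlike changes over time in control. H2ac8 was at 9.56 to 16.28 TPM in control at 0 h, 7.04 to 10.50 in control at 36 h, 7.50 to 10.75 in knockdown at 0 h and 3.48 to 5.26 in knockdown at 36 h. Its change over time in control was -0.49, without a call, where H2bc8 fell by 2.25 on the log2 scale.

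**Figure D3:**
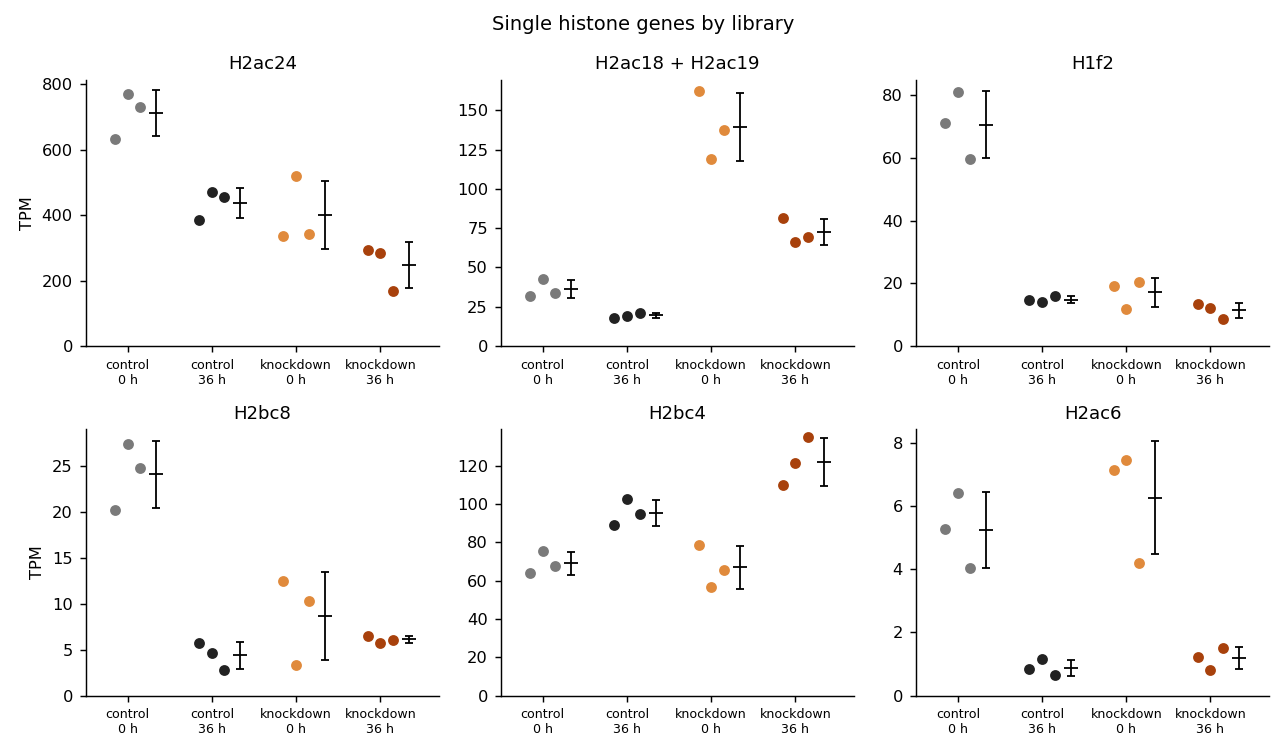
TPM (vertical axes, from 0) of H2ac24, the sum of H2ac18 and H2ac19, H1f2, H2bc8, H2bc4 and H2ac6 in the 12 libraries. Points are libraries, and the bar beside them is the mean with its SD. The H2ac18 and H2ac19 panel shows all knockdown libraries, from 65.97 TPM, above all control libraries, to 42.87 TPM, and the H2bc4 panel shows both 36 h groups above the 0 h groups of the same cells.

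H4c4 and H4c9 were the most abundant H4 genes, with means of 15.58 and 10.31 TPM over all libraries, followed by H4c18 with 6.214 TPM. H4c4 ranged from 6.94 to 32.58 TPM, with both the lowest and the highest value at 0 h, and passed in no comparison. H4c9 was at 4.83 to 7.31 TPM in control and 10.83 to 15.58 TPM in knockdown at 36 h (log2 fold change 0.95, adjusted p = 0.203, or 0.00983 without knockdown 0 h library 2). H4c8 was higher in knockdown at 0 h, at 5.51, 6.85 and 7.67 TPM against 4.07, 3.64 and 2.22 TPM (0.85, SE 0.22, limma adjusted p = 0.0247, or 0.0587 and 0.0933 without control 0 h library 2 and 3). H4c11 was lower in knockdown at 0 h, at 0.43, 0 and 0.94 TPM against 2.47, 1.57 and 1.58 TPM (-1.02, SE 0.31, adjusted p = 0.0422), a call that was lost in 17 of 22 alternatives, among them leaving out any 1 library except control 36 h library 1 and knockdown 0 h library 3 (adjusted p = 0.0513 to 0.142).

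The H3 genes were the lowest class. H3c4 was highest, at 4.78, 7.60 and 4.50 TPM in control at 0 h, 2.36 to 2.59 TPM in control at 36 h, 3.14 to 4.52 TPM in knockdown at 0 h and 1.42 to 2.48 TPM in knockdown at 36 h. Its control libraries at 0 h were all above those at 36 h, with a log2 fold change of -0.90 that did not pass (limma adjusted p = 0.247). H3c11 ranged from 0 to 5.91 TPM and H3c8 from 0 to 2.66 TPM, without a call in any comparison.

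The members were then sorted by how their transcript model ends, which the choice of genes did not use. In 20 members the model ends within 60 bases after the stem-loop letters, in 22 it runs on for more than 60 bases, in 13 it ends at the stop codon, and in 11 it holds no stem-loop letters and ends elsewhere. A poly(A) signal, AATAAA or ATTAAA, lay in the last 40 bases of 16 models. Models that end at the stem-loop held most of the sum, with 788.5 to 931 TPM in control at 0 h, 481.9 to 577 in control at 36 h, 570.7 to 746.4 in knockdown at 0 h and 281.5 to 443.2 in knockdown at 36 h. H2ac24 alone had a mean of 712.1 TPM of the 864.5 TPM of these models in control at 0 h. In knockdown at 0 h it had 399.4 of 632.5 TPM, so the lower sum there rests on H2ac24. H2ac18 and H2ac19, whose models also end at the stem-loop, were higher in knockdown at 0 h. Models that run past it, which include H1f2 and H2ac6, summed to 145.1 to 209.7 TPM in control at 0 h, 71.18 to 87.87 in control at 36 h, 92.31 to 113.8 in knockdown at 0 h and 66.53 to 87.71 in knockdown at 36 h. The 11 models without the letters that end elsewhere, led by H2bc4, were highest at 36 h, with 78.59 to 93.79 TPM in control at 0 h, 99.16 to 115.8 in control at 36 h, 67.01 to 86.47 in knockdown at 0 h and 119.4 to 143.4 in knockdown at 36 h. The 13 models that end at the stop codon, which also lack the letters, summed to 11.81 to 21.75 TPM in control at 0 h, 12.67 to 23.73 in control at 36 h, 8.84 to 29.33 in knockdown at 0 h and 7.93 to 15.06 in knockdown at 36 h, with overlapping groups in each comparison. All 3 called falls over time in control were in models that run past the stem-loop (3 of 14 tested), beside 0.111% of all genes called lower. All 3 higher calls at 0 h were in models that end at it (3 of 13 tested), beside 3.1% of all genes. These include the near-copies H2ac18 and H2ac19, which share reads. The lower calls at 0 h were 3 in models that run past the stem-loop, 1 in models that end at it and 1 in models without the letters that end elsewhere, beside 14.6% of all genes.

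**Figure D4:**
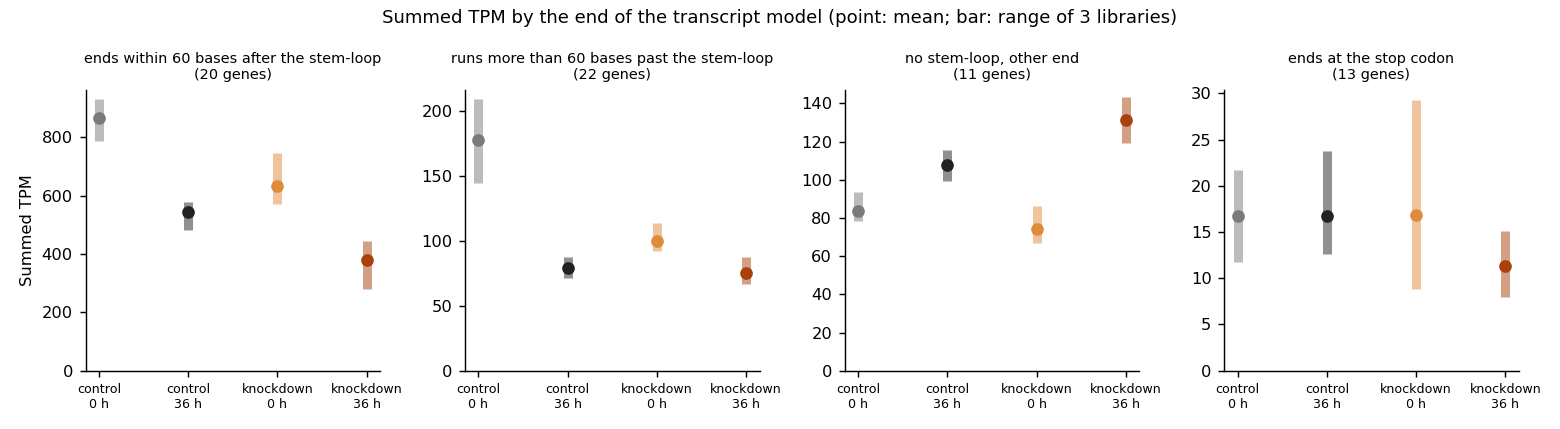
Summed TPM (vertical axes, from 0) of the members grouped by the end of their transcript model, in the 4 groups. Points are means and bars span the 3 libraries. The group of 11 models without stem-loop letters that end elsewhere is at 119.4 to 143.4 TPM in knockdown at 36 h, while both groups with the letters are highest in control at 0 h. Most of the sum of the group that ends at the stem-loop is H2ac24.

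RefSeq promoters (GRCm38.p6, 250 bases before to 50 after the start) were at hand for 57 of the 66 members, with 58 promoters in all. Exact letters were searched on both strands, and no 2 of the motifs overlapped in these promoters. The octamer ATTTGCAT, known as the site of the OCT1 factor in H2B promoters, was in 22.4% of member promoters against 1.74% of all 32851 promoters. It was in 6 of 17 H2A and 7 of 15 H2B promoters, and in none of the H1, H3 and H4 promoters. Windows of head-to-head genes can overlap, so the same site can count for both genes, as the octamer between H2ac8 and H2bc8 does. The promoters with a motif are therefore not all separate sites. CCAAT was in 86.2% of member promoters against 37.4% of all, but in only 3 of 11 H4 promoters. TATAAA was in 58.6% against 13.6%, and TTTNGCGC was in 22.4% against 1.38%, within H2A and H2B. A match is a description of letters and not of a bound site.

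The promoters of 3 members that fell over time in control are given below for the 150 bases before the start, 5′ to 3′ on the strand of the gene. H1f2 is at chr13:23738657-23738806 on the plus strand, H2bc8 at chr13:23571250-23571399 on the plus strand and H2ac6 at chr13:23683960-23684109 on the minus strand. Capitals mark the octamer, CCAAT and TATAAA on either strand.
H1f2: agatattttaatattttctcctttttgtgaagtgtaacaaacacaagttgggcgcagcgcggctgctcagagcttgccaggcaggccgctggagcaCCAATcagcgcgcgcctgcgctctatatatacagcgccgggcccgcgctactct
H2bc8: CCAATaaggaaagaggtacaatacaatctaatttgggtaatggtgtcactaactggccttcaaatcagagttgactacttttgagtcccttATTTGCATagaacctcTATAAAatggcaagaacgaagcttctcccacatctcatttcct
H2ac6: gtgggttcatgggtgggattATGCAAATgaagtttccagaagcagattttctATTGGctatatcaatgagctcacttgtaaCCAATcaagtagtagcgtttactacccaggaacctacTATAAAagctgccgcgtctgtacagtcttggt
The octamer and TATAAA stand in the windows of H2bc8 and H2ac6 but not in that of H1f2.

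Genes that act on histone supply were also counted, and their calls were not recomputed under other scalings. Of 24 histone pre-mRNA processing and transcription factors, 4 were called lower and none higher at 0 h, beside 14.6% of all genes called lower, with a median change of -0.70 beside -0.41 for all genes tested. They were Hinfp, an H4 promoter factor (log2 fold change -1.60), Eri1, an exonuclease that trims histone mRNA ends (-1.32), Zfp473, a U7 complex partner (-0.86), and Mif4gd, an SLBP partner in translation (-0.98). Slbp was at 142 to 197.8 TPM in control and 152.3, 53.17 and 151 TPM in knockdown at 0 h, and was not called (adjusted p = 0.199). Npat, the cyclin E and CDK2 target that switches on histone genes, was at 16.88 to 17.4 TPM in control and 4.37 to 17.7 TPM in knockdown at 0 h (adjusted p = 0.134). None of the 24 was called in the other comparisons.

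Of 23 histone chaperones, 7 were called lower at 0 h and none higher, beside 14.6% and 3.1% of all genes tested. Their median was -0.88, beside -0.41 for all genes. The 4 with the lowest adjusted p were Hjurp, the CENP-A chaperone (-1.56), Asf1b, an H3 and H4 chaperone (-1.98), Atrx, the DAXX partner (-1.33), and Mms22l (-1.32). Of 11 genes listed as replication-independent variants, 6 were called lower at 0 h and none higher, beside the same shares of all genes. Cenpa, the centromeric H3, was at 192 to 199.4 TPM in control and 34.53 to 68.62 TPM in knockdown (-1.85, adjusted p = 0.00159). H2ax, the damage-marking H2A variant, was at 46.96 to 55.79 TPM against 7.34 to 22.9 TPM (-1.77, adjusted p = 0.00738), and H2az1 at 794.8 to 848.2 TPM against 271.6 to 488 TPM (-1.07, adjusted p = 0.00817). H1f0, the linker histone of non-dividing cells, was at 260.8 to 292.2 TPM against 21.42 to 103 TPM (-2.28, adjusted p = 0.00976). No chaperone or variant was called in the other comparisons.

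Of 31 polyadenylated S phase genes, 20 were called lower at 0 h and none higher, beside 14.6% and 3.1% of all genes tested. Their median was -1.34, beside -0.38 for the 42 members and -0.41 for all genes tested. Median-of-ratios scaling took the median of all genes to -0.02, and with only the 0 h groups in the fit 0.111% were called. The calls of this list were not refitted under either setting. Ccna2 (cyclin A2) was at 126.6 to 164.6 TPM in control and 25.7 to 48.55 TPM in knockdown at 0 h, and Mcm5, a replicative helicase subunit, at 90.44 to 104.9 against 11.52 to 30.48 TPM. Cdt1, a licensing factor, and Uhrf1, a partner of DNA methylation upkeep, were the others with the lowest adjusted p (log2 fold changes -1.60 and -1.78). At 36 h, 3 were called lower in knockdown, namely Lig1 (-0.95), Ccna2 (-1.02) and Cdt1 (-0.92), beside 1.64% of all genes. Over time in control none was called, with a median of 0.16, while that of the 42 members was -0.25. Over time in knockdown Mcm5 (1.74) and Ccna2 (1.11) rose, beside 0.998% of all genes called higher. The list median was 0.96 there, against -0.21 for the members and 0.33 for all genes tested. All these lists were written with earlier results of these data known.

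RNA without poly(A) tails differed between the groups as well. The sum of 22 nuclear RNAs of that kind was 1092 to 3650 TPM in control at 0 h, 2777 to 4917 in control at 36 h, 4110 to 13826 in knockdown at 0 h and 6013 to 7679 in knockdown at 36 h. All 12 of them that were tested had higher means on the log scale in knockdown at 0 h. Of these, 4 were called higher, beside 3.1% of all genes tested. The median change of the other tested genes under 700 bases was 0.47 at 0 h, where that of all genes was -0.41. As 41 of the 66 members are under 700 bases, the part of RNA capture and of length in the changes of the members was not tested. Cd68, which led the immune markers, fell over time in control (-1.68, adjusted p = 0.0142) and in knockdown (-1.46, adjusted p = 0.0158), while the histone sum was lower at 36 h in both. Lyz2, the other immune marker tested of 5, had changes of -0.18 in control and 0.34 in knockdown, without a call. The sum of the 5 went from 10.66 to 16.11 TPM at 0 h to 3.72 to 4.6 TPM at 36 h in control, and from 6.64 to 13.08 to 3.9 to 4.27 TPM in knockdown. Its part in the histone changes was not tested.

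**Figure D5:**
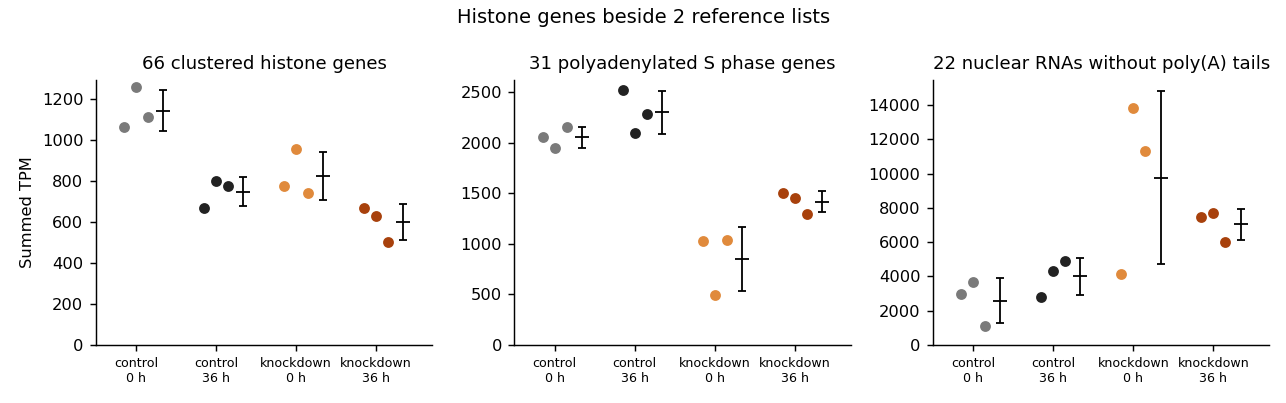
Summed TPM (vertical axes, from 0) of the 66 clustered histone genes, of 31 polyadenylated S phase genes and of 22 nuclear RNAs without poly(A) tails in the 12 libraries. Points are libraries, and the bar beside them is the mean with its SD. The S phase sum is lower in every knockdown library than in any control library, and the nuclear RNA sum is highest in knockdown 0 h library 2, at 13826 TPM.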

How the data were processed

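TPM values (transcript abundance scaled to a fixed library total) per gene in 12 libraries were used as deposited by the authors. Per the submitters' processing notes, the build was GRCm39 and the tools, with no roles given, were HTSeq, DESeq2, HISAT2 2.2.1, cutadapt 1.9.1 and FastQC, and the step that made the TPM values is not given in the sources used here. The authors' mean columns, and 1 further column without a sample of its own, were not used as measurements. Groups followed the labels. With limma 3.58.1 in R 4.3.3, log2(TPM + 1) was fitted with a mean for each of the 4 groups, a trend in the spread and Benjamini-Hochberg adjustment over all 14426 genes that reached 1 TPM in 3 or more libraries. Fold changes on this scale understate those of low genes. The fit was tested on simulated data. Members described in full were the 3 with the highest mean TPM of each class and those called, up to 6 in each direction of a comparison; up to 4 called genes of each list were named. Sums over near-copies were added after seeing the data, and limma was run on them only with the main settings. The members, lists and tests were chosen with earlier results of these data known. Sequences came from GENCODE M21 models and RefSeq promoters (GRCm38.p6), and no coordinates were converted.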

Additional observations from a re-analysis of the deposited data

Results flagged for a closer look

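For 3 results, every library moved one way with the knockdown at 0 h and the other way at 36 h. The log2 ratio of mean TPM, knockdown over control, was -1.47 for H2bc8 at 0 h and 0.486 at 36 h. The limma difference between its changes was 1.97, with an adjusted p of 0.595 over all genes. For the sum of H2bc23 and H2bc24 the ratios were -1.72 and 0.282, and the difference in limma was 1.59 with an adjusted p of 0.594. After median-of-ratios scaling its ratio at 36 h was 0.379, with overlapping groups. For the sum of the 18 H2B genes they were -0.348 and 0.286, and this difference was not tested. After median-of-ratios scaling the H2B ratio at 0 h was 0.135, with overlapping groups.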

How the results depend on the processing

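The number of members called was 8 for the knockdown at 0 h and 1 at 36 h, and for 36 h against 0 h it was 3 in control and 1 in knockdown. The share of all genes called in the same fit follows each count. At 0 h it was 3 (3.5%) with no filter on low values and 0 (0.111%) with only the groups compared. At 36 h it was 6 (15.1%) with only the groups compared, and also 6 (19%) with median-of-ratios scaling without knockdown 0 h library 2. Over time in control it was 1 (0.109%) with no filter, and 5 (2.69%) with that scaling without knockdown 0 h library 2. Over time in knockdown it was 2 (1.57%) with median-of-ratios scaling, 2 (1.31%) without mitochondrial genes, 2 (2.77%) with scaling without knockdown 0 h library 2 and 0 (0.125%) with only the groups compared. Leaving out 1 library at a time gave 4 to 10, 0 to 7, 1 to 5 and 0 to 2 members in the same order, with 5.27 to 41.1%, 0.168 to 19%, 0.125 to 2.82% and 0.322 to 11% of all genes. The log2 ratio of summed TPM at 0 h turned to 0.1025 under median-of-ratios scaling, and the one over time in knockdown went to -0.9387. Leaving out 1 library gave sums of -0.5939 to -0.3992 at 0 h, -0.4046 to -0.2068 at 36 h, -0.6647 to -0.5355 in control and -0.5442 to -0.3397 in knockdown. The Snai1 difference at 0 h was -0.8 but not called with no filter or only the groups compared, and -0.5437 with scaling. Leaving out 1 library gave -0.931 to -0.6386 at 0 h and -1.638 to -1.416 at 36 h. The cause of these shifts was not tested.

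Libraries of different groups share numbers, but of 15 same-numbered pairs only 2 had a correlation over 0.1 (range -0.287 to 0.132), and 3 of 12 libraries correlated best with their own number. These correlations gave no sign that the numbers pair the samples. With 3 libraries in a group they cannot exclude pairing, and the labels do not state it. With a replicate block, 4 members were called for the knockdown at 0 h (7.01% of all genes) and 0 at 36 h (0.0347%), and 0 for either change over time (0.0416% in control and 0.277% in knockdown). Only control 36 h library 4 has its number, so the block takes that library out of the group means as well. With the replicate block and median-of-ratios scaling the counts were 5 (9.71%) and 0 (0.216%), and 1 (0.0765%) in control and 0 (0.39%) in knockdown for the change over time. With the block, the Snai1 difference was -0.8 at 0 h and -1.502 at 36 h, and with block and scaling -0.5437 and -1.466, none of them called. TPM keeps no read number, so no counting error can be given for low members.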
